A study of Rattus norvegicus with 9 samples.

Results

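The genes described here make fatty acid from glucose carbon and join it into triglyceride in the liver. The list held 10 genes given by symbol (Srebf1, Mlxipl, Acly, Acaca, Fasn, Elovl6, Me1, Thrsp, Dgat2 and Gpam), and 9 of these 10 had a row of that symbol among the 32883 genes of the series. All 9 passed the filter on low counts and were among the 14089 genes tested. Mlxipl had no row of its symbol. A row named AABR07035839.1 carried its Entrez gene ID, and its values are given apart and were not counted with the 9.

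Bulk liver RNA was sequenced from 9 male Sprague-Dawley rats of 8 to 11 weeks, in 3 groups of 3 labelled as biological replicates. Normal livers came from rats whose further treatment the sources used here do not describe. Livers of the empty group came from rats with acute-on-chronic liver failure (ACLF), made by bile duct ligation for 21 days followed by 0.25 mg/kg lipopolysaccharide (LPS) given intraperitoneally, and then connected to an extracorporeal blood circuit holding neither cells nor an apheresis column. Livers of the UTOpiA group came from rats with the same ligation and LPS whose circuit held a granulocyte-monocyte apheresis column and a column of alginate-encapsulated hepatocyte-like cells, made from gene-edited human induced pluripotent stem cells. In both ACLF groups circulation began 1 h after LPS and ran for 2 h, and livers were taken 24 h after LPS from rats chosen at random among survivors. UTOpiA thus differed from empty by both columns together, and either ACLF group differed from normal by ligation, LPS, surgery and circulation together. Fasting and food intake were not given in the sources used here.

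In the liver, insulin and glucose drive lipogenesis largely through a pair of transcription factors. SREBP-1, encoded by Srebf1, is held in the endoplasmic reticulum by INSIG proteins and released through SCAP, and ChREBP, encoded by Mlxipl, responds to sugar metabolites together with its partner MLX. Their best known targets are the enzymes that turn citrate into acetyl-CoA, malonyl-CoA and palmitate, elongate and desaturate it, and esterify it to glycerol.

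Promoters of the transcription factor and of a pair of its targets are shown first because all of these genes were lower in ACLF livers in the data below. RefSeq windows on GRCr8, 250 bases before to 50 after an annotated start, were at hand for 6 of the 10 listed genes, in 8 windows. In each stretch below, the 180 bases before the start are given 5′ to 3′ on the strand of the gene, and capitals mark CCAAT or its reverse complement, the letters bound by the factor NF-Y, a known partner of SREBP.
Srebf1, upstream start, chr10:45529165-45529344, minus strand: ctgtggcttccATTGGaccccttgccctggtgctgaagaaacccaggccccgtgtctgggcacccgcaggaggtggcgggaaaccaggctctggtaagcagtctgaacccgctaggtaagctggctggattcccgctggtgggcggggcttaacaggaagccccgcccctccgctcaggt
Srebf1, downstream start, chr10:45519011-45519190, minus strand: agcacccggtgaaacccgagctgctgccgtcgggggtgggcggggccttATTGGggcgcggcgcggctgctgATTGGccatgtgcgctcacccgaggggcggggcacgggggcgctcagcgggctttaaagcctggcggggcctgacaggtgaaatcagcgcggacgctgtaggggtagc
Thrsp, chr1:161138965-161139144, minus strand: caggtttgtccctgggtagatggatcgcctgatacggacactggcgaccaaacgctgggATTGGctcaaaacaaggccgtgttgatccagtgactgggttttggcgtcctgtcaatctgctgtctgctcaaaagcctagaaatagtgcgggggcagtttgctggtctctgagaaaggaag
Acly, chr10:85963632-85963811, minus strand: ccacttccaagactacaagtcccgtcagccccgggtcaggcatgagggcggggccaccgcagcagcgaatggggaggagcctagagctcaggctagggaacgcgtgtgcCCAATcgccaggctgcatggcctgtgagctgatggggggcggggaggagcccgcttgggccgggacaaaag

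The downstream Srebf1 window held CCAAT letters at 2 positions, -131 and -108 from the start, and the upstream window held them at -169. The Thrsp match lay at -121 and the Acly match at -71. On either strand, CCAAT was found in 7 of the 8 windows and in 37.5% of all 33469 RefSeq promoter windows of the same length, and the 2 Mlxipl windows overlap almost entirely. The GC box letters GGGCGG were found in 5 of the 8 windows and in 33.1% of all windows. Neither the sterol element core TCACNCCAC (1.12% of all windows) nor the E-box CACGTG (6.42% of all windows) was found in the 8 windows, which says only that these letters are not there.

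Total counts per library ranged from 14241172 to 17321677. The livers differed by far more than sampling noise within each group, and the typical spread between livers was wider in ACLF: the median standard deviation of log2 CPM (counts scaled to library size) was 0.189 in normal, 0.298 in empty and 0.303 in UTOpiA livers. Hepatocyte markers and markers of other cells moved with ACLF. Of 12 hepatocyte markers 7 were called lower and 1 higher in empty than in normal livers, where 11.1% of all tested genes were called lower and 20.7% higher, shares that bear on each count of this paragraph. The list had a median log2 fold change of -1.13, its summed TPM (transcript abundance scaled to gene length and depth) ranged from 181170 to 199353 in normal, 60699 to 95292 in empty and 69540 to 93436 in UTOpiA livers, and no marker of it was at 0. Summed TPM of the cholangiocyte markers was 14.7 to 24.8 in normal, 323 to 670 in empty and 134 to 426 in UTOpiA livers, and that of the neutrophil markers was 2.35 to 5.58, 188 to 1107 and 175 to 507. Of the markers called higher, 6 of 7 for cholangiocytes, 5 of 5 for neutrophils and 3 of 3 for lymphocytes passed the count filter through the ACLF livers alone, so those counts carry no weight. Of 8 stellate cell and fibroblast markers 7 were higher, and the summed TPM of these 8 stellate cell and fibroblast markers ranged from 94.6 to 109 in normal, 887 to 1099 in empty and 455 to 1085 in UTOpiA livers. Of 7 macrophage markers 6 were higher, and 1 of these 6, Timd4, passed the count filter through the ACLF livers alone. Summed TPM of the 7 was 195 to 232 in normal, 376 to 667 in empty and 262 to 538 in UTOpiA livers. Of 4 erythroid markers 3 were higher and 1 lower, and 1 of the 3, Alas2, passed the count filter through the ACLF livers alone. Summed TPM of the 4 was 56.0 to 172 in normal, 1578 to 2052 in empty and 486 to 826 in UTOpiA livers. The ranges did not overlap between the ACLF groups, although none of the 4 was called between them. Of 5 endothelial markers 1 was higher and 1 lower. In bulk tissue, fewer hepatocytes and less RNA per hepatocyte cannot be told apart, and the part of these shifts in the results below was not tested.

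The first comparison asked how livers with ACLF and the empty circuit differed from normal livers. Elovl6, at 13 counts or fewer, passed the count filter through the normal livers alone, so it is left out of the counts and medians that follow, and the other 8 had at least 225 counts in every liver. ACLF livers of the empty circuit held less of all 8 transcripts, with a median log2 fold change of -4.23, an 18.8-fold difference from normal. All 8 passed the call used throughout (edgeR quasi-likelihood test, Benjamini-Hochberg adjusted p under 0.05 and over 2-fold), whereas 11.1% of all tested genes were called lower and 20.7% higher. In all 8 the 3 empty livers lay below the 3 normal livers, as did 12.8% of all tested genes. The median over all genes was 0.04. With Elovl6 added at its bound, as given below, the median was -4.16.

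**Figure D1:**
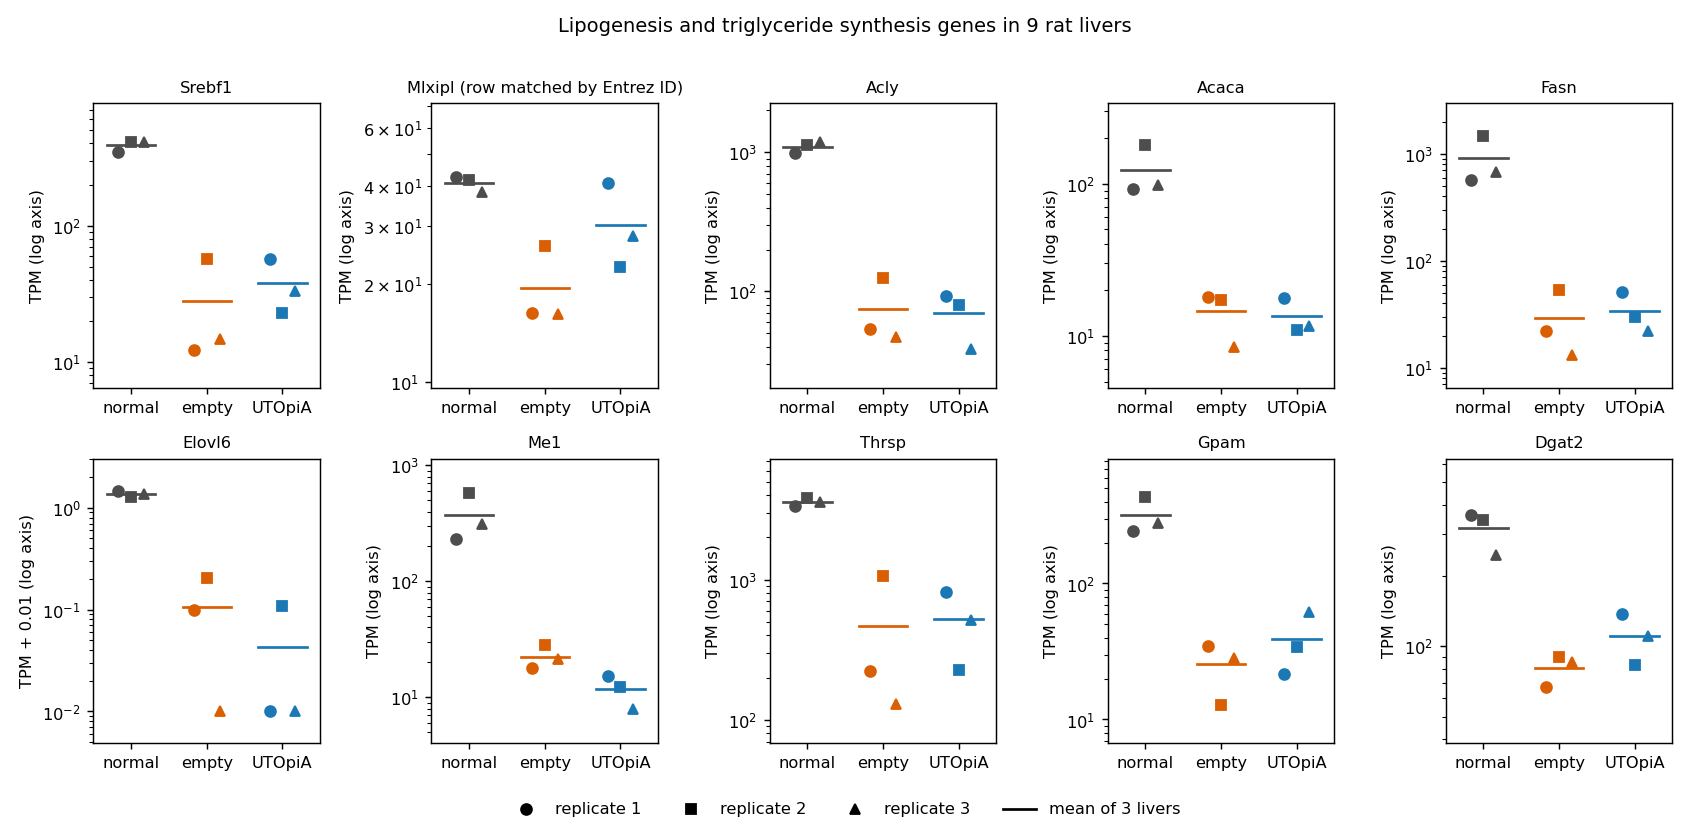
Level of each gene (TPM, log axis) in the 3 normal, 3 empty and 3 UTOpiA livers, with symbols for replicates and lines for group means; Elovl6 is drawn as TPM + 0.01 because several ACLF livers were at 0. All ACLF livers sit below all normal livers in every panel except that of the Mlxipl row, where UTOpiA replicate 1, at 40.6 TPM, reached the normal range.

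Srebf1, the transcription factor at the head of the pathway (chromosome 10, 46570996 to 46593009 in the tables), stood at 347, 412 and 411 TPM in normal livers. It was at 12.4, 57.2 and 14.7 TPM in empty livers and at 57.3, 23.0 and 33.3 TPM in UTOpiA livers. The ACLF groups overlapped each other, and the highest ACLF liver was 6.07-fold below the lowest normal liver. The log2 fold change was -4.31 (SE 0.68, edgeR adjusted p = 0.00113) in empty and -3.65 (SE 0.66, edgeR adjusted p = 0.00299) in UTOpiA livers against normal.

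The row with the Entrez ID of Mlxipl (chromosome 12, 24590645 to 24619639) moved less. Its level was 42.6, 41.7 and 38.2 TPM in normal, 16.2, 26.1 and 16.1 TPM in empty and 40.6, 22.6 and 28.0 TPM in UTOpiA livers. The row was called lower in empty livers (log2 fold change -1.58, SE 0.29, edgeR adjusted p = 0.00212) but not in UTOpiA livers (-0.71, SE 0.29, edgeR adjusted p = 0.0737), where 1 liver lay within the normal range. Those 2 comparisons share the normal livers, and the difference between them is the comparison of UTOpiA with empty given below.

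The 3 enzymes that carry citrate to palmitate were all lower in ACLF. Acly, ATP-citrate lyase, which splits citrate into acetyl-CoA, was at 983, 1127 and 1183 TPM in normal, 53.6, 125 and 46.9 TPM in empty and 92.0, 79.6 and 38.4 TPM in UTOpiA livers. Acaca, acetyl-CoA carboxylase 1, which makes malonyl-CoA for synthesis, was at 91.8, 181 and 98.0 TPM in normal, 18.1, 17.2 and 8.47 TPM in empty and 17.6, 10.99 and 11.5 TPM in UTOpiA livers. Fasn, fatty acid synthase, was at 570, 1461 and 680 TPM in normal, 22.3, 53.0 and 13.2 TPM in empty and 50.9, 30.2 and 21.9 TPM in UTOpiA livers. Neither ACLF group overlapped the normal group in any of these genes, and normal replicate 2 was the highest normal liver for both Acaca and Fasn.

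Fasn had the lowest estimate of the 9 in empty livers, with a log2 fold change of -5.43 (SE 0.68, edgeR adjusted p = 0.000348), a 43.2-fold difference. Acly followed the same course at -4.38 (SE 0.46, edgeR adjusted p = 0.000152), as did Acaca at -3.57 (SE 0.43, edgeR adjusted p = 0.000288). In UTOpiA against normal livers the estimates were -5.05 for Fasn, -4.33 for Acly and -3.50 for Acaca, with edgeR adjusted p of 0.000659, 0.00025 and 0.00048.

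Me1, cytosolic malic enzyme, which supplies NADPH for the synthase, was lower in both ACLF groups. Its level was 233, 575 and 310 TPM in normal, 17.9, 28.0 and 21.3 TPM in empty and 15.1, 12.2 and 7.95 TPM in UTOpiA livers. Its log2 fold change was -4.57 (SE 0.39, edgeR adjusted p = 6.9e-05) in empty and -5.32 (SE 0.40, edgeR adjusted p = 7.02e-05) in UTOpiA livers against normal. All UTOpiA livers lay below all empty livers in Me1 alone of the 9, beside 8.62% of all tested genes, and that difference was not called (-0.75, edgeR adjusted p = 0.494).

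Thrsp, a small nuclear and cytosolic protein induced with lipogenesis, was the most abundant of the 9 and had the widest range over the ACLF livers among the 8 detected in every liver. It was at 3342, 3839 and 3571 TPM in normal livers, which differed by at most 1.15-fold. Empty livers were at 223, 1058 and 129 TPM and UTOpiA livers at 819, 228 and 517 TPM, an 8.21-fold range over the 6. The log2 fold change was -3.43 (SE 0.84, edgeR adjusted p = 0.00911) in empty and -3.04 (SE 0.83, edgeR adjusted p = 0.0182) in UTOpiA livers. Without UTOpiA replicate 2 the latter was -2.63 with an edgeR adjusted p of 0.0561 and was no longer called.

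Elovl6, the elongase that takes palmitate to stearate, was barely detected by its row (chromosome 2, 234189105 to 234296145, minus strand). Counts were 13, 12 and 13 in normal, 1, 2 and 0 in empty and 0, 1 and 0 in UTOpiA livers. With the ACLF groups set at a floor of 3 counts per library, the gene was 6.89-fold lower in empty and 5.55-fold lower in UTOpiA livers than the normal mean. These bounds make no allowance for counting error in the normal livers or for spread between livers. A neighbouring row, LOC102549542 (chromosome 2, 234375315 to 234483149, plus strand), carried the same Entrez ID and was deeper, at 44, 125 and 72 counts in normal, 2, 7 and 1 in empty and 4, 4 and 2 in UTOpiA livers. Its ACLF livers lay near the floor as well, so no fold is given. Which row holds the transcript of the elongase was not settled here.

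At the esterification end, Gpam, the mitochondrial glycerol-3-phosphate acyltransferase that starts triglyceride assembly, was at 244, 433 and 276 TPM in normal, 35.0, 12.7 and 28.4 TPM in empty and 21.5, 34.0 and 62.0 TPM in UTOpiA livers. Its log2 fold change was -4.16 (SE 0.60, edgeR adjusted p = 0.000733) in empty and -3.23 (SE 0.57, edgeR adjusted p = 0.00276) in UTOpiA livers. Dgat2, the diacylglycerol acyltransferase that finishes triglyceride from newly made fatty acid, was at 362, 347 and 246 TPM in normal, 67.0, 90.1 and 85.8 TPM in empty and 138, 83.2 and 110 TPM in UTOpiA livers. Dgat2 had the smallest estimate of the 9, at -2.50 (SE 0.30, edgeR adjusted p = 0.000268) in empty and -1.81 (SE 0.29, edgeR adjusted p = 0.00156) in UTOpiA livers, yet its highest ACLF liver was still 1.79-fold below its lowest normal liver.

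Against normal livers the UTOpiA group was thus lower in all 8 genes besides Elovl6, all called, with a median log2 fold change of -3.58, beside 6.81% of all tested genes called lower and 18.2% called higher. In all 8 the 3 UTOpiA livers lay below the 3 normal livers, as did 13.4% of all tested genes. With Elovl6 added at its bound the median was -3.50. The comparison shares the normal livers with that of the empty group, so the 2 results are not independent.

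**Figure D2:**
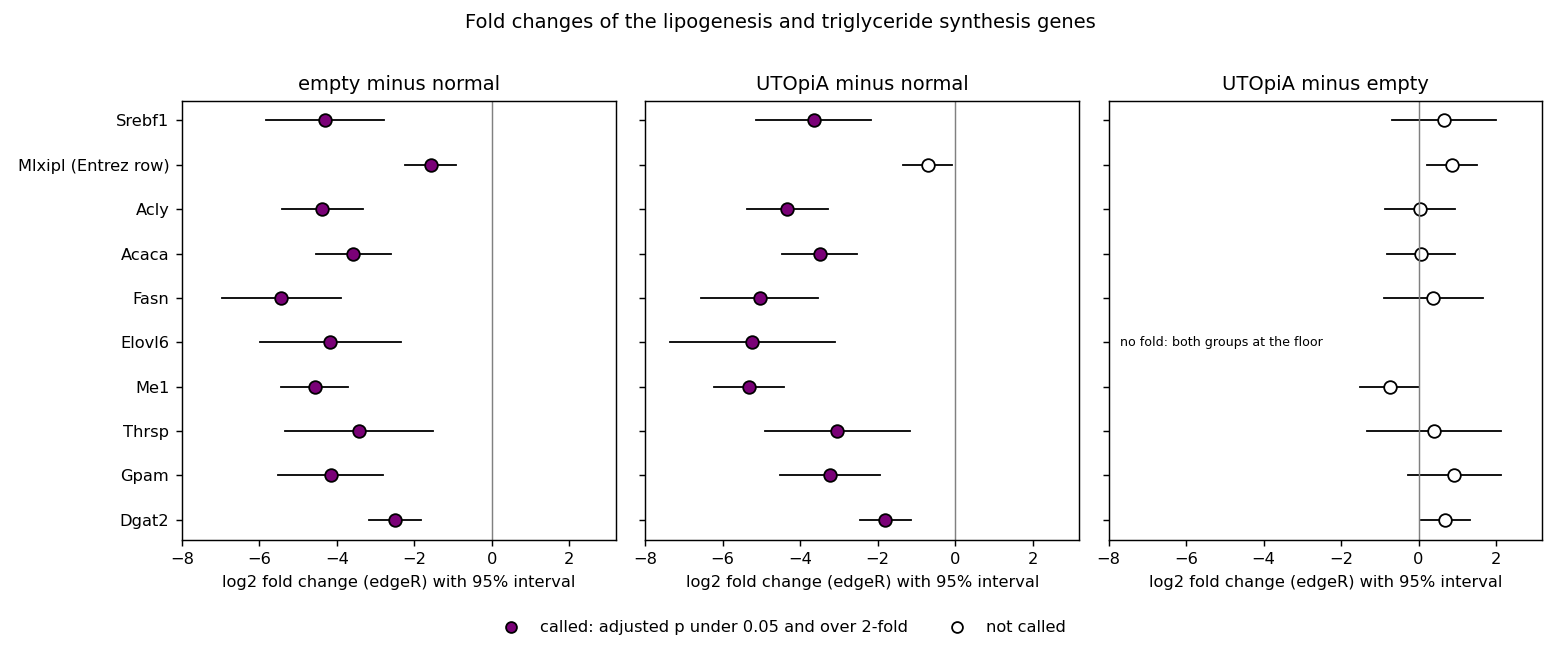
Log2 fold change of each gene (edgeR, x axis) with its 95% interval in the 3 comparisons; filled points were called and open points were not. In the panels against normal the filled points run from -5.43 to -1.58, and in the panel of UTOpiA against empty all points are open. The filled Elovl6 points belong to a row that passed the count filter through the normal livers alone.

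The second comparison asked whether the treated ACLF livers differed from ACLF livers of the empty circuit. None of the 9 genes was called in either direction, and neither was any other gene tested (0% higher and 0% lower, edgeR). That count of 0 changed with the libraries kept: with empty replicate 2 left out, edgeR gave 26 higher (0.181%) and 22 lower (0.153%), and with UTOpiA replicate 2 left out, 32 higher (0.223%) and 17 lower (0.119%), none of them among the 9. DESeq2 on all livers called 53 genes higher (0.376%) and 71 lower (0.504%), none of them among the 9, and limma on log2(TPM + 1) called 0. At an unadjusted p under 0.05, 1 of the 8 genes with a fold passed, beside 10.3% of all tested genes. That gene was Dgat2, higher in UTOpiA by 0.69 on the log2 scale (SE 0.29, 95% interval 0.05 to 1.33, edgeR adjusted p = 0.455). No fold is given for Elovl6, which was at the floor in both groups.

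The estimates of the other genes were positive except for that of Me1. Gpam was at 0.92 (95% interval -0.28 to 2.13), Srebf1 at 0.66 (-0.69 to 2.00), Thrsp at 0.39 (-1.34 to 2.12) and Fasn at 0.39 (-0.89 to 1.66), all on the log2 scale. Acaca (0.07, -0.81 to 0.95) and Acly (0.04, -0.86 to 0.95) lay nearer to 0. Me1 was at -0.75 (-1.51 to 0.02). The intervals for Srebf1, Thrsp and Gpam reach 2.00 or more on the log2 scale. As single libraries were left out (edgeR), the estimate for Gpam ranged from 0.15, without UTOpiA replicate 3, to 1.30, without empty replicate 1, and that for Srebf1 from 0.29, without UTOpiA replicate 1, to 1.74, without empty replicate 2.

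The row of Mlxipl was higher in UTOpiA by 0.87 on the log2 scale (95% interval 0.22 to 1.51, unadjusted p = 0.0137, adjusted p = 0.395, edgeR). It was not called under any edgeR or limma alternative, but DESeq2 called it higher without empty replicate 2 (1.12, DESeq2 adjusted p = 0.00688) and without UTOpiA replicate 2 (1.10, DESeq2 adjusted p = 0.00252), alternatives chosen after the data were seen. The latter fit called 228 genes higher (1.62%) and 350 lower (2.48%). All 3 UTOpiA livers lay above all 3 empty livers in none of the 9 genes, beside 2.43% of all tested genes. The median of the 8 estimates was 0.39, beside 0.00 over all genes.

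Single libraries set much of this spread. The median of the 8 estimates was 0.72 without empty replicate 2, -0.027 without empty replicate 3 and 0.000895 without UTOpiA replicate 1 (edgeR). With either of the last 2 libraries left out, the estimates for Thrsp, Acly and Acaca were below 0. Empty replicate 2 was the highest of the 6 ACLF livers in 4 of 8 genes, Elovl6 left out (Acly, Fasn, Me1 and Thrsp), and was the lowest for Gpam. Without it, the estimates for UTOpiA against empty became 1.74 for Srebf1 (edgeR adjusted p = 0.0911), 1.81 for Thrsp (edgeR adjusted p = 0.187), 1.13 for Fasn (edgeR adjusted p = 0.34) and 0.64 for Acly (edgeR adjusted p = 0.374), and still none of the 9 was called. With DESeq2 in place of edgeR and the same library left out, an alternative chosen after the data were seen, 2 of the 9 were called higher in UTOpiA. They were Srebf1 (1.71, DESeq2 adjusted p = 0.000436) and Thrsp (1.78, DESeq2 adjusted p = 0.0103), and the same fit called 353 of 14089 genes higher (2.51%) and 134 lower (0.951%).

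Taken liver by liver, the median over 8 genes (Elovl6 left out) was 18.1-fold, 7.95-fold and 20.3-fold below the normal mean in empty replicates 1, 2 and 3. It was 9.14-fold, 14.7-fold and 11.2-fold below in UTOpiA replicates 1, 2 and 3. The ranges overlapped, and the liver closest to normal belonged to the empty group. Summed TPM of the 9 genes ranged from 6176 to 8375 in normal, 348 to 1442 in empty and 501 to 1211 in UTOpiA livers. Empty replicate 2 and UTOpiA replicate 1, the highest in this sum, also had the highest summed hepatocyte marker TPM of the 6, at 95292 and 93436. Alb and Tf, at 33608 and 25871 TPM in empty replicate 2, made up most of that marker sum and were highest in that liver. The markers did not share this order: Hnf4a, Serpina1 and Fgb were lowest of the 6 in empty replicate 2.

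**Figure D3:**
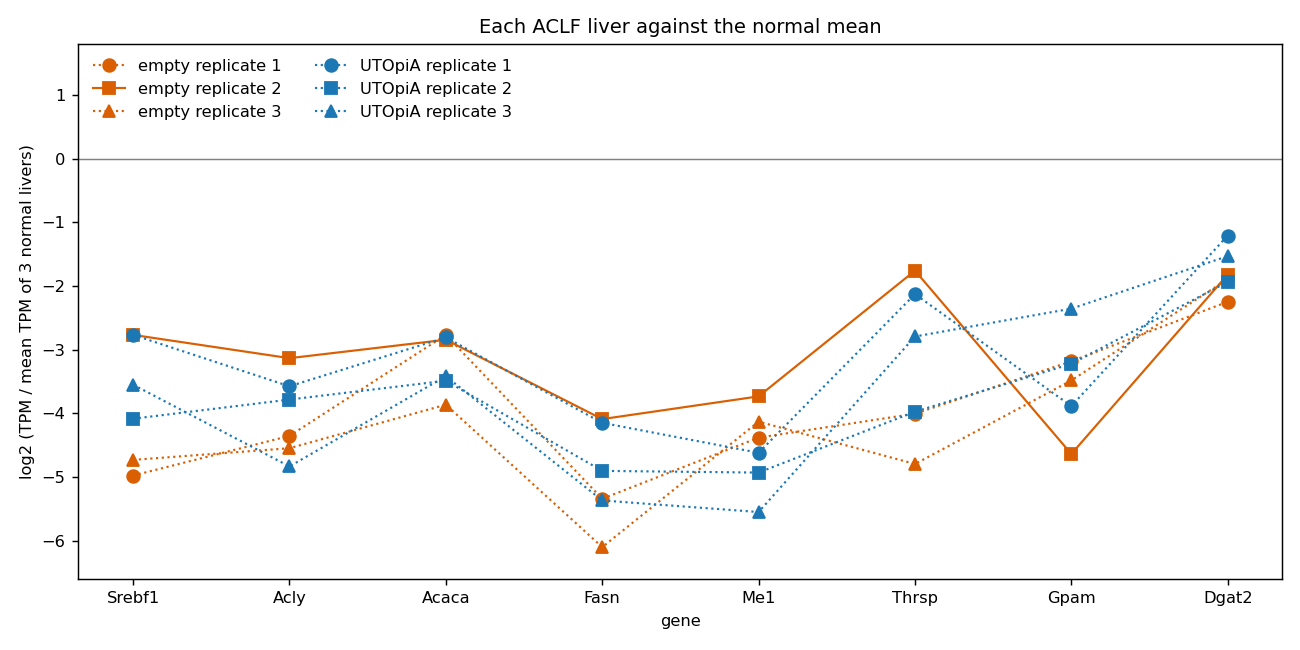
Level of 8 genes in each ACLF liver as log2 of TPM over the mean of the 3 normal livers; a line joins the points of 1 liver, solid for empty replicate 2. That liver lies at or near the top for Srebf1, Acly, Fasn, Me1 and Thrsp and lowest for Gpam, and every point is below 0.

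The genes did not share 1 order of livers. By root mean square difference of centred log2(TPM + 1) over the 9 livers, the closest pair was Srebf1 and Thrsp at 0.421, and Fasn and Elovl6 were farthest apart at 1.84, Elovl6 being at the bottom of the scale. Outside the listed genes, 12304 protein-coding genes were compared. Those nearest to Fasn were Fam111a at 0.447, Sult4a1, Cyp2b2, Pklr and Gsta2, the last at 0.696. Those nearest to Srebf1 were Ugt2b10 at 0.324, Gcat, Ugt2a3, Tsku and AABR07048487.2, the last at 0.432. Ugt2b10, a glucuronosyltransferase, was at 237, 284 and 244 TPM in normal, 5.16, 51.7 and 7.09 TPM in empty and 46.3, 9.96 and 20.5 TPM in UTOpiA livers, with empty replicate 2 and UTOpiA replicate 1 on top as for Srebf1.

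Around these genes, 90 others of 6 listed roles were tested. In empty against normal livers 42 were called lower and 10 higher, beside 11.1% and 20.7% of all tested genes, and their median was -1.06 on the log2 scale. Of these, 1 of the 42 and 3 of the 10 (Pparg, and Elovl7, Gpat3 and Lpl) passed the count filter only through the group where they were high. In UTOpiA against normal livers 36 were lower and 10 higher, beside 6.81% and 18.2% of all tested genes. Of these, 2 of the 36 (Pparg and Ppargc1b) fell short of the count filter in the UTOpiA livers. The same 3 of the 10 (Elovl7, Gpat3 and Lpl) fell short of it in the normal livers. None of the 90 was called between UTOpiA and empty, and 11 had an unadjusted p under 0.05, a share near the 10.3% of all tested genes. DESeq2 on the same livers called 2 of the 90 lower in UTOpiA and none higher, beside 0.504% and 0.376% of all tested genes. They were Lpin1, a phosphatidate phosphatase (-1.51, DESeq2 adjusted p = 0.026), and Hilpda, a lipid droplet protein that inhibits lipolysis (-1.19, DESeq2 adjusted p = 0.0125), of which Hilpda was named after its values were seen. Without empty replicate 2, DESeq2 no longer called Lpin1 (-1.20, DESeq2 adjusted p = 0.0672) and still called Hilpda (-1.35, DESeq2 adjusted p = 0.00211).

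Among 19 regulators, 8 were lower and 1 was higher in empty than in normal livers, beside 11.1% and 20.7% of all tested genes. Mid1ip1, the partner of Thrsp, was lower at -2.89 (SE 0.26, edgeR adjusted p = 8.1e-05), as were Scap at -1.34 and Mlx, the partner of ChREBP, at -1.25. Pparg, a nuclear receptor that drives fat storage, had a mean of 3.99 TPM in normal and 0.37 TPM in empty livers. It was 1 of the 8 but passed the count filter through the normal livers alone, so no fold is given. Irs2, an insulin receptor substrate, was the gene called higher, at 2.48 (edgeR adjusted p = 0.00533). Insig2 was called lower at -1.06, near the threshold of 1. Nr1h3, the liver X receptor alpha, was at -0.85 and was not called.

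Insig1, which retains SREBP and is itself a SREBP target, was not called at -1.21 (SE 0.85, edgeR adjusted p = 0.272). Its level was 483, 544 and 725 TPM in normal, 74.9, 909 and 94.8 TPM in empty and 407, 317 and 171 TPM in UTOpiA livers. Empty replicate 2 lay above all normal livers and the other two empty livers lay far below them. Without that replicate Insig1 was called higher in UTOpiA than in empty livers at 2.00 (edgeR adjusted p = 0.0474), together with Plin2, a droplet coat protein, which was lower at -2.08 (edgeR adjusted p = 0.0455), in the fit that called 0.181% of all genes higher and 0.153% lower.

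The genes that bring glucose to the pathway were lower too, 5 of 6 being called in empty livers, beside 11.1% of all tested genes called lower. Pklr, liver pyruvate kinase and a ChREBP target, was at -4.36 (SE 0.37, edgeR adjusted p = 7.3e-05). Of 10 genes that supply acetyl-CoA, NADPH or malonyl-CoA, 7 were lower and none higher, beside 11.1% and 20.7% of all tested genes. The citrate carrier Slc25a1 was at -1.52 and Acacb, the carboxylase of the mitochondrial surface, at -2.64, both called, and Acss2, which activates acetate, was at -1.88 (edgeR adjusted p = 0.091) and was not called.

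**Figure D4:**
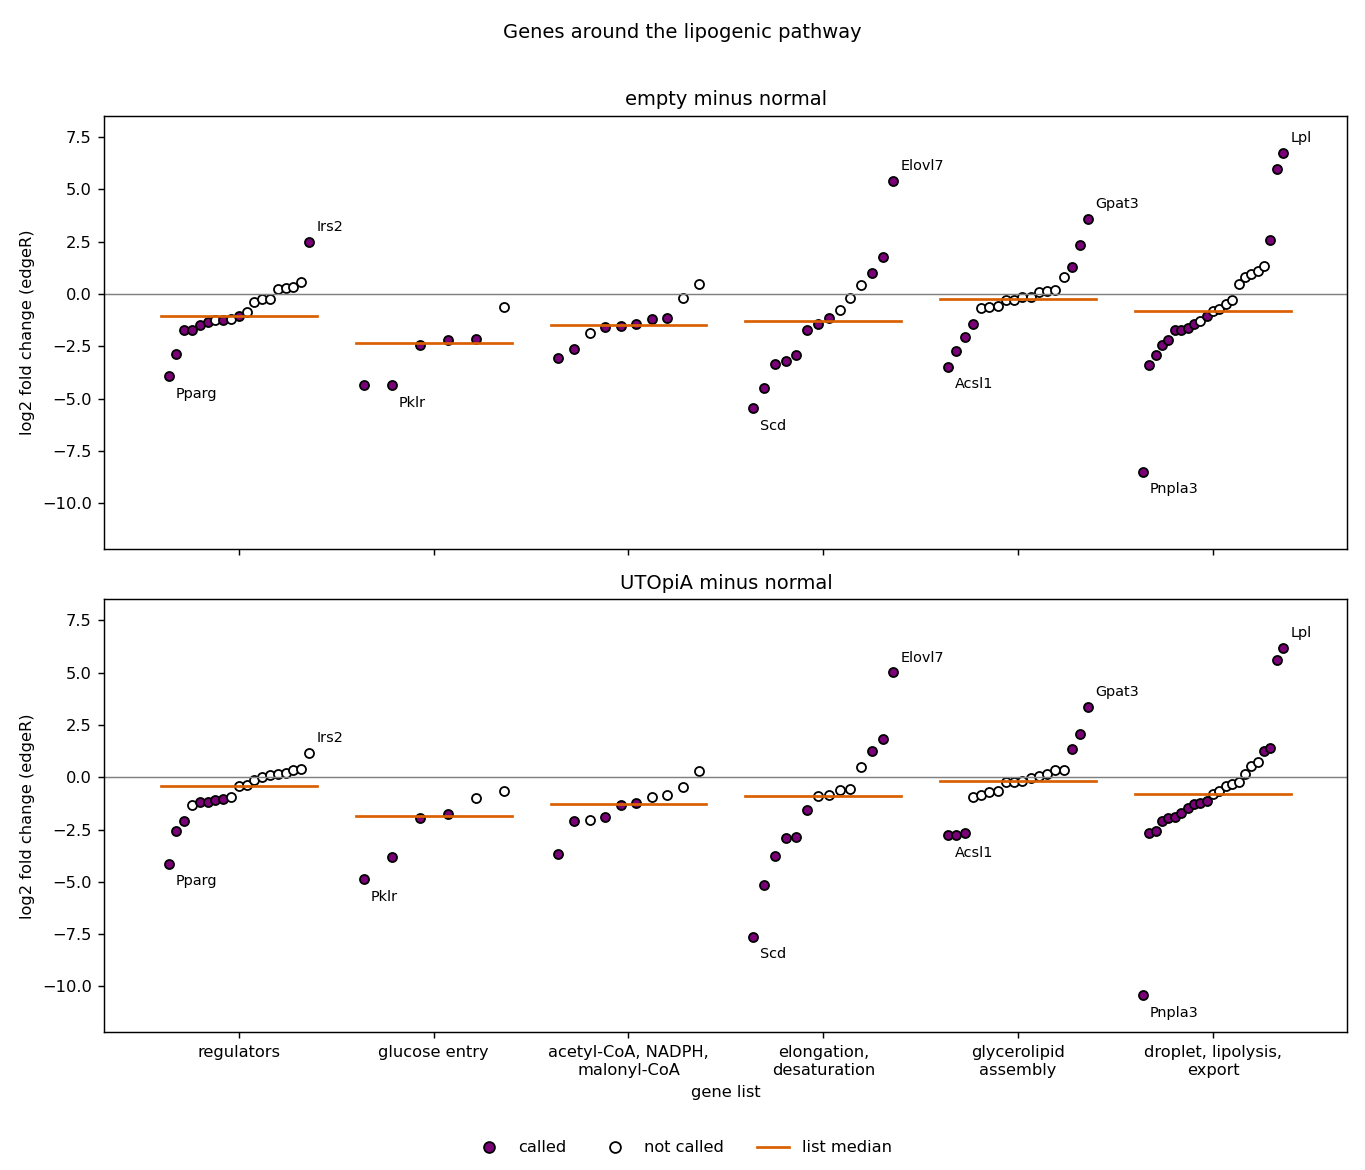
Log2 fold change (edgeR) of each tested gene in 6 lists of related genes, in empty against normal (top) and UTOpiA against normal (bottom); filled points were called, bars are list medians, and 9 genes described in the text are named. The lists of glucose entry and of acetyl-CoA, NADPH and malonyl-CoA hold no called gene above 0, whereas Irs2, of the regulators, stands at 2.48 in the top panel. Elovl7, Gpat3, Lpl and Pparg passed the count filter only through the groups where they were high. Ppargc1b, a point of the regulators, fell short of that filter in the UTOpiA livers of the bottom panel.

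Genes of desaturation and elongation were called in both directions. Of 14 genes tested, 8 were called lower and 3 higher in empty livers, beside 11.1% and 20.7% of all tested genes. The share called higher was thus near that of all genes, and 1 of the 3, Elovl7, passed the count filter through the ACLF livers alone. Scd, the main liver stearoyl-CoA desaturase, was at 3813, 8119 and 5807 TPM in normal, 20.1, 540 and 4.14 TPM in empty and 49.2, 10.2 and 45.3 TPM in UTOpiA livers, a 130-fold range over the 6 ACLF livers. It was lower at -5.47 (SE 1.70, edgeR adjusted p = 0.0266) in empty and at -7.61 (SE 1.87, edgeR adjusted p = 0.0126) in UTOpiA livers. Between UTOpiA and empty its estimate was -2.14 with all livers and 1.78 without empty replicate 2, so that 1 library set its sign, and neither value was called.

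Scd2, the related desaturase of brain and many other tissues, went the other way, at 5.05, 6.46 and 6.74 TPM in normal and 29.6, 27.0 and 34.0 TPM in empty livers. Its log2 fold change was 1.79 (SE 0.27, edgeR adjusted p = 0.000806); Scd2 was named after its values were seen. Elovl5, which elongates polyunsaturated fatty acids, was lower at -3.20 (edgeR adjusted p = 0.000244). Elovl7 was near the floor in normal livers, at 0, 6 and 0 counts, beside 115, 157 and 160 in empty livers, and it passed the count filter through the ACLF livers alone, so no fold is given. The cholangiocyte and neutrophil marker sums given above were higher in the same livers, and their part in the levels of Scd2 and Elovl7 was not tested.

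**Figure D5:**
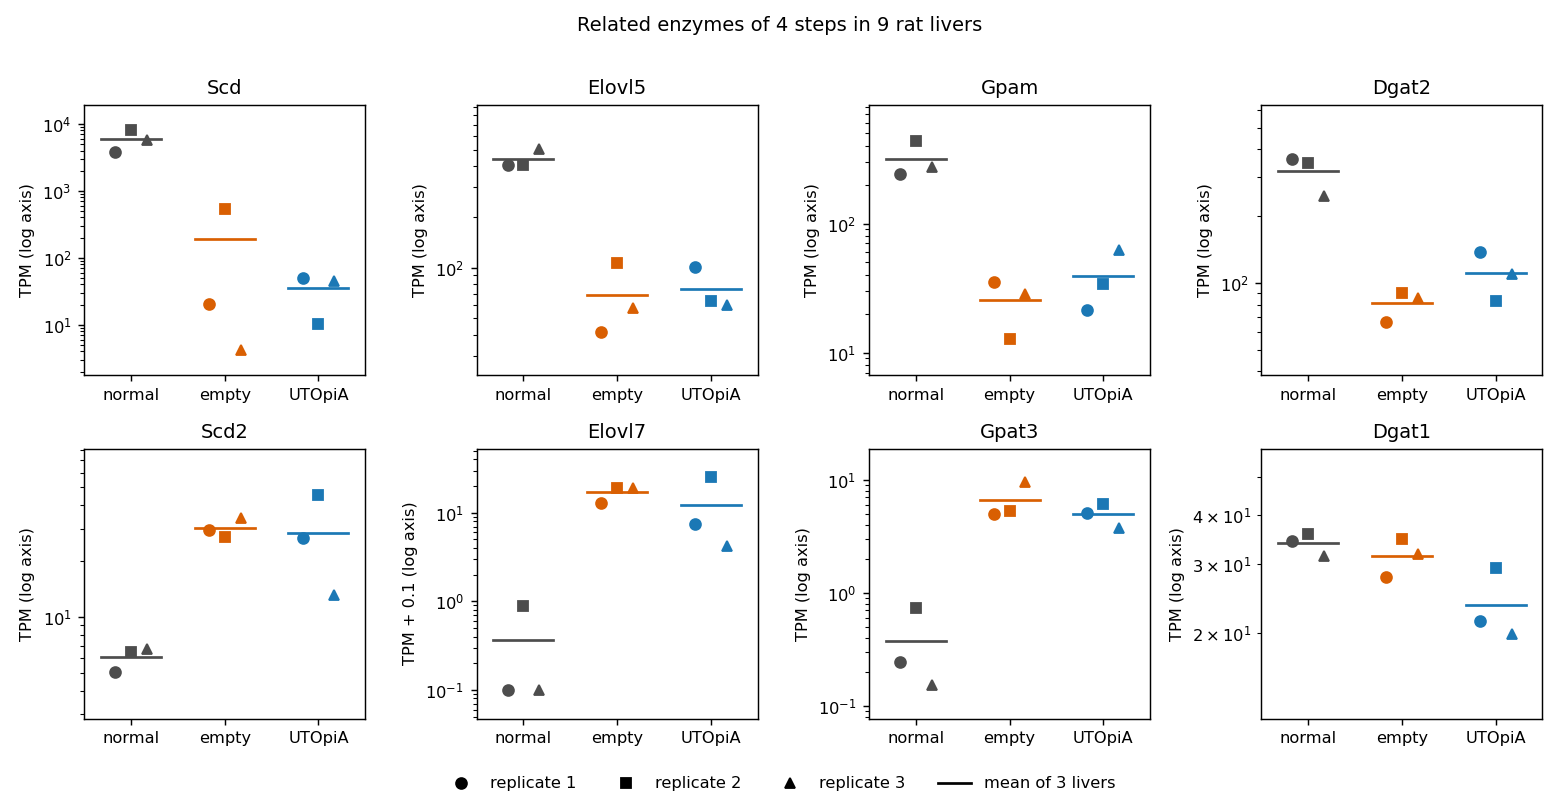
Level (TPM, log axis; Elovl7 as TPM + 0.1) of related enzymes of desaturation, elongation, glycerol acylation and the last step of triglyceride synthesis in each of 9 livers, with group means as lines. Scd, Elovl5, Gpam and Dgat2 in the top row are lower in all ACLF livers, and Scd2, Elovl7 and Gpat3 below them are higher in all ACLF livers.

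In glycerolipid assembly 4 of 18 genes were called lower, 3 higher and 11 not called in empty livers, beside 11.1% and 20.7% of all tested genes. Acsl1, the main liver acyl-CoA synthetase, was lower at -3.47 (edgeR adjusted p = 0.000332). Gpat3, an acyltransferase of the endoplasmic reticulum that does the same step as Gpam, was at 0.25, 0.73 and 0.15 TPM in normal livers. It was at 4.97, 5.31 and 9.60 TPM in empty livers, levels that stayed below those of Gpam. Gpat3 was 1 of the 3 called higher, but with 6, 19 and 4 counts in normal livers it passed the count filter through the ACLF livers alone. No fold is therefore given for Gpat3. Gpat4 was at -0.30 and Agpat2, the next enzyme of the route, at -0.68, and neither was called. Dgat1, which catalyses the same reaction as Dgat2, was at 34.2, 35.7 and 31.4 TPM in normal and 27.7, 34.6 and 31.8 TPM in empty livers, groups that overlapped, with a log2 fold change of -0.63 (SE 0.13, edgeR adjusted p = 0.0037) that was under the fold threshold. The mean TPM of Dgat2 was 319 beside 33.8 for Dgat1 in normal livers, 81.0 beside 31.4 in empty livers and 110 beside 23.5 in UTOpiA livers.

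Among 23 genes of lipid droplets, lipolysis and export, 10 were lower and 3 higher in empty livers, beside 11.1% and 20.7% of all tested genes. Pnpla3, a droplet protein under SREBP-1 control, showed the largest estimate in size among the 90 related genes, from 1562, 2189 and 2079 TPM in normal to 0.59, 21.9 and 0.36 TPM in empty and 4.15, 0.94 and 0.37 TPM in UTOpiA livers. Its log2 fold change was -8.49 (SE 1.81, edgeR adjusted p = 0.00506) in empty and -10.42 (SE 1.96, edgeR adjusted p = 0.00392) in UTOpiA livers. Lpl, lipoprotein lipase, which the healthy adult liver barely expresses, had a mean of 0.63 TPM in normal and 99.6 TPM in empty livers. It was 1 of the 3 called higher but passed the filter through the ACLF livers alone, so no fold is given. Plin2 was at -0.50 in empty livers (edgeR adjusted p = 0.543) and was called lower in UTOpiA livers against normal at -2.08 (edgeR adjusted p = 0.0345); its empty livers spread from 30.2 to 267 TPM.

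Of 8 adipocyte markers, 4 were at or near 0 and 4 were detected. Lep was at 0 in all 9 livers, and Adipoq, Retn and Plin1 had at most 5 counts in any liver. The other 4 had enough counts to test, and 2 of them were called higher in empty than in normal livers, beside 20.7% of all tested genes. Both were named after their values were seen. Fabp4, a fatty acid binding protein, was at 5.96 (edgeR adjusted p = 5.92e-05) and reached 107 to 257 TPM in ACLF livers. Cfd, complement factor D, was at 1.82 (edgeR adjusted p = 0.000623), from 7.74, 9.75 and 8.58 TPM in normal to 51.4, 40.8 and 39.4 TPM in empty livers. Lipe, hormone-sensitive lipase, was at 0.95 and Cidec, a droplet protein, at -0.31, and neither was called. The summed TPM of the 8 was 54.4 to 64.1 in normal, 199 to 358 in empty and 194 to 246 in UTOpiA livers, and the part of these markers in the results was not tested.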

How the data were processed

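RNA-seq of 9 livers was analysed from 2 deposited tables, gene-level raw counts and TPM, that the authors made with HISAT2 and featureCounts. The submitters' processing notes name Trimmomatic and rn6, whereas the published methods name Cutadapt and a mouse build; the tables list rat Ensembl genes, and the strand setting of the counting was not stated. Coordinates of genes are those of the tables and those of promoters are RefSeq's on GRCr8. Srebf1 overlaps a gene on the other strand, whose reads could not be told apart if strand was not used.

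Genes listed here, the related lists and the tests were chosen with earlier results of these data known. Named genes were the listed ones, fixed counterparts, the called gene of largest change in each direction per list, and the 5 nearest profiles to Fasn and Srebf1; others are marked as named after their values were seen, and a few genes the rule would name are not reported here. Counts were tested with edgeR 4.0.16 (filterByExpr, TMM factors, robust quasi-likelihood fit over the 3 groups). A gene was called at an adjusted p under 0.05 and over 2-fold, and intervals are 95%. Standard errors derive from the F statistic. DESeq2 1.42.0, limma 3.58.1 on log2(TPM + 1), other filters and factors, and leaving out each library were the alternatives, and the tools were tested on simulated counts. TPM and TMM scales differ: on log2(TPM + 1) the median of all genes moved by 0.44 in empty and 0.28 in UTOpiA against normal, beside 0.04 and 0.05 with edgeR. Adjusted p-values measure the spread between these livers. Replicate numbers were shared across groups, but deviations of same-numbered livers correlated between -0.24 and 0.11, so numbers were not taken as pairs.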

Additional observations from a re-analysis of the deposited data

How the results depend on the processing

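Over 28 alternatives and with Elovl6 included, 8 or 9 of the listed genes were called lower against normal livers, in empty and in UTOpiA. The count was 8 where Elovl6 failed a filter or Thrsp was lost. Elovl6 passed the count filter through the normal livers alone, so its part in these counts carries no weight. Over all tested genes the main fit called 11.1% lower in empty and 6.81% lower in UTOpiA livers. With the replicate number as a block (replicate block), the median log2 fold change was -4.24 in empty and -3.58 in UTOpiA against normal with 9 called in each, and 0.66 between UTOpiA and empty with none called. Elovl6 was among those 9, and the same fit called 1532 of all 14089 genes lower in empty and 897 lower in UTOpiA livers. The median over the 9 for UTOpiA against normal, -3.65 with edgeR and the fitted value of Elovl6, was -3.25 with limma on log2(TPM + 1), where Elovl6 failed the filter, -3.07 with no filter on low TPM, and ranged from -4.03 to -3.32 as single libraries were left out with either tool. In the comparison of UTOpiA with empty the median was 0.39 and ranged from -0.044 to 0.72 as libraries were left out with either tool, so its sign rested on single livers.

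None of the 9 was called there under any alternative except DESeq2 without empty replicate 2, where 2 were (0 to 2 over the left-out libraries). Of the 90 related genes, 2 were called with DESeq2, and 0 to 12 as libraries were left out, 12 with DESeq2 without empty replicate 2. Estimates near 0 changed sign: with limma Acly was -0.052 at either pseudocount and with no filter, and Acaca was -0.077, -0.079 and -0.077. As libraries were left out with either tool, Acly ranged from -0.25 to 0.64, Acaca from -0.25 to 0.30, Fasn from -0.0088 to 1.13 and Thrsp from -0.088 to 1.81. The row of Elovl6 stayed at 13 counts or fewer, whereas the other 8 had at least 225 counts in every liver.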
